A study of Homo sapiens with 6 samples.

Results

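The cells labelled siLINC01534-2 were compared with the parent cells in HCT116, an established human colorectal cancer cell line of epithelial type, to describe across genes what accompanied this small interfering RNA (siRNA). The members were the 2 libraries labelled siLINC01534-2 and the 2 labelled Parent, 4 of the 6 RNA-seq libraries of the series, chosen by their labels alone. The other 2 libraries, labelled siLINC01534-1, are a second siRNA against the same long noncoding RNA, LINC01534, and entered the fit and the comparison between the siRNAs. Of 26255 gene symbols in each file, 12203 had a mean FPKM, a read count scaled to transcript length and library size, of at least 1 over the 6 libraries, and 11977 of these were left once 226 symbols of short RNA genes were set aside. The mean runs over all groups, so a gene low in Parent could pass through the siRNA libraries. The labels do not describe the parent cells as transfected and give neither a dose nor a time for the siRNA, and no cells given a control siRNA were analysed here. The siRNA and the transfection itself therefore cannot be told apart. The labels call the 2 libraries of a group replicates without saying that they came from separate cultures, and the study's methods mention replicate cultures in a number that is not that of these libraries. The p-values therefore measure the spread between these libraries, which may be technical.

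An siRNA is a short RNA duplex of which one strand is loaded into an Argonaute protein and directs the cutting of an RNA that matches it along its length. Positions 2 to 8 of a loaded strand, the seed, can also lower other mRNAs that match the seed alone. The endoplasmic reticulum (ER) answers unfolded protein through 3 sensors, PERK (encoded by EIF2AK3), IRE1 (encoded by ERN1) and ATF6. PERK slows translation and raises the transcription factor ATF4 and, behind it, CHOP (encoded by DDIT3), while IRE1 and ATF6 raise chaperones and the machinery that removes misfolded protein. Colorectal cancer cells rely on these pathways under nutrient shortage, and their response can run together with the antioxidant, inflammatory and cell cycle programmes described below.

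The target of siLINC01534-2 is shown first, because it is where this siRNA was designed to act. It occupies chr19:37177588-37177606 of GRCh37 (hg19) on the minus strand, in exon 2 of LINC01534, a noncoding gene annotated from 37173538 to 37178370, and it ends with the last base of that exon in 4 of 6 annotated transcripts. The site is in capitals and the 5 bases on each side are in lower case, with the letters after the site belonging to the intron in those 4 transcripts.
LINC01534 target site: tttcgGAACGAGGCTTTTCGAGTTgtaag
LINC01534 itself lay under the filter, at 0.285 and 0.571 FPKM in the Parent libraries and 0.6603 and 0.551 FPKM in the siLINC01534-2 libraries. Both siLINC01534-2 values lay above the lower Parent value, and all 4 were 1 or 2 times the smallest step between values, as single reads give. A decrease of LINC01534 was not detectable at this depth, and groups carry the names on their labels for that reason.

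The depth of the libraries is not stated, and the steps between low FPKM values put it at about 10150000 and 10100000 reads for Parent and at 8750000 and 10400000 reads for siLINC01534-2. FPKM above 0 were listed for between 16513 and 16903 symbols in each of the 6 libraries. The 8 epithelial markers examined were all expressed, with a summed FPKM of 3578 and 3640 in Parent and of 3677 and 3506 with siLINC01534-2. Of markers of other cell types, 1 of 8 for fibroblasts, 2 of 8 for leucocytes and 0 of 6 for endothelium passed the filter, and in these 4 libraries no endothelial marker exceeded 0.221 FPKM. Among epithelial markers 5 rose and 0 fell, including CDH1 (E-cadherin) with a log2 fold change of 0.57 and ESRP1, an epithelial splicing regulator, at 0.42, and 2 to 4 of the 5 stayed called with any 1 library left out. CD68, a lysosomal protein used as a leucocyte marker, rose from 3.92 and 2.88 FPKM to 6.18 and 6.105 FPKM, a call kept in 1 of 4 fits with 1 library left out, and PTPRC, the pan-leucocyte marker, did not pass the filter. The other 3 epithelial markers were not called and had log2 values below 0, the lowest -0.114. With short RNA genes removed before the fit, 1 epithelial marker was called lower. In bulk RNA, more cells with a marker and more RNA per cell cannot be told apart.

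The response was broad and mostly small. At a Benjamini-Hochberg adjusted p under 0.05 in the limma fit of log2(FPKM + 1), 2773 of 11977 genes were called, 1345 higher with siLINC01534-2 (11.2% of the genes tested) and 1428 lower (11.9%). These shares are the background for the counts in gene lists. The median log2 fold change was 0.36 among the genes called higher, -0.29 among those called lower and 0.003 over all genes tested. Of the called genes, 2211 differed by less than 0.5 on the log2 scale, and 155 passed 2-fold in mean FPKM, 112 higher and 43 lower. The larger changes were thus mainly increases. In all 2773 called genes the siLINC01534-2 libraries lay on one side of both Parent libraries, but the same was true of 65.7% of all genes tested. When 1 of the 4 libraries was left out, so that its group kept 1 library assumed to vary like the other groups, the number called fell to 872 without Parent 1, 834 without Parent 2, 1164 without siLINC01534-2 replicate 1 and 856 without siLINC01534-2 replicate 2. The vault RNA gene VTRNA1-2, the lowest point of the plot, was not called. It stood at 0 and 439.9 FPKM in Parent and was listed at 0 in both siLINC01534-2 libraries, and was named after its values were seen.

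**Figure D1:**
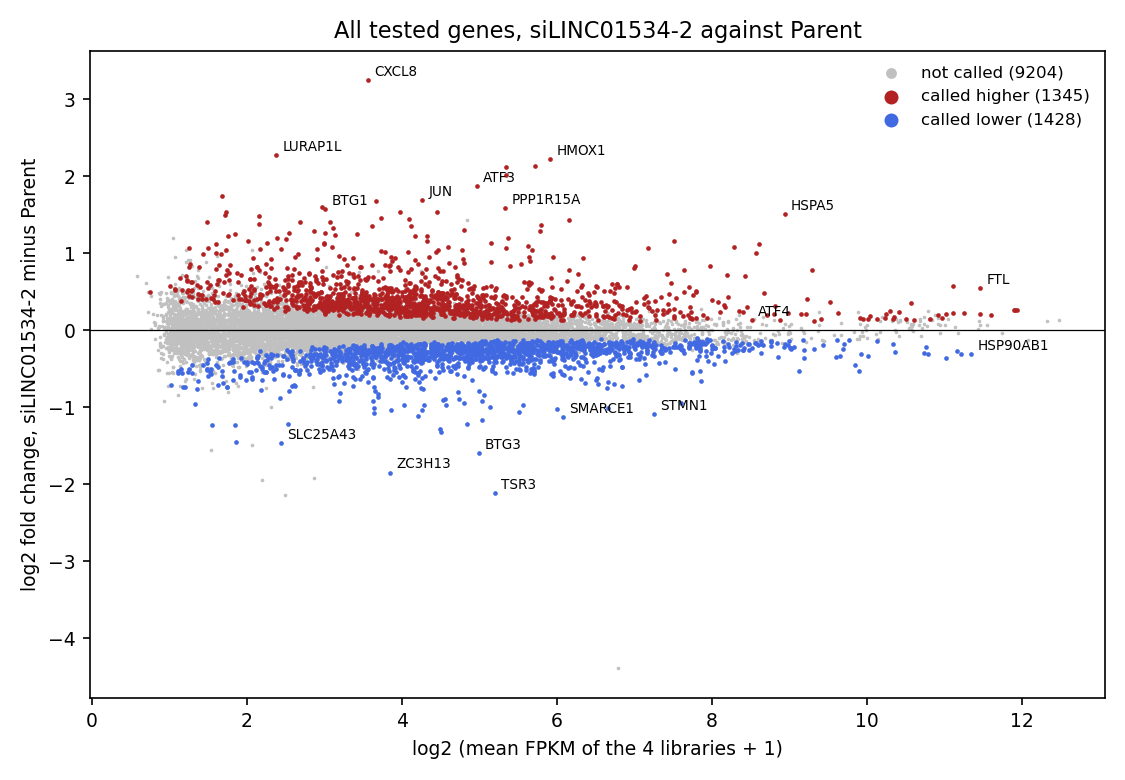
Log2 fold change of siLINC01534-2 minus Parent (vertical axis) against log2 of the mean FPKM of the 4 libraries plus 1 (horizontal axis) for the 11977 genes tested. Each point is a gene, red for the 1345 called higher, blue for the 1428 called lower and grey for those not called, and the largest called change is the increase of CXCL8.

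The largest increases were led by inflammatory and stress response genes. CXCL8, the neutrophil chemokine interleukin-8, stood at 1.12 and 1.39 FPKM in Parent and at 18.9 and 21.9 FPKM with siLINC01534-2, a log2 fold change of 3.24 ± 0.09 (standard error) with an adjusted p of 1.5e-04. HMOX1, the heme-degrading enzyme heme oxygenase 1, went from 19.7 and 20.999 to 92.7 and 104 FPKM (2.22 ± 0.07, adjusted p = 1.5e-04). DDIT3 went from 17.5 and 19.5 to 78.5 and 90.2 FPKM (2.13 ± 0.08, adjusted p = 2.6e-04). In each of these the groups were far apart relative to the gap between libraries of one group. These genes were chosen as the largest called changes with separate libraries, so this separation adds no support. LURAP1L (2.28), UPP1, which cleaves uridine (2.11), and LAMB3, a chain of the basement membrane protein laminin-332 (2.01), also passed 2 on the log2 scale. LURAP1L stood at 0.836 and 0.718 FPKM in Parent and passed the filter only through the siRNA libraries. The transcription factors ATF3 (1.87), JUN (1.69), RELB (1.67) and NR4A2 (1.60) followed, with PPP1R15A, the phosphatase subunit GADD34 that reverses PERK signalling (1.59), and BTG1, an antiproliferative gene (1.58). All 12 were also called higher with siLINC01534-1 against the same Parent libraries, at log2 values from 1.47 for BTG1 to 3.01 for CXCL8. Of all 11977 genes tested, 2649 were called higher in that comparison. The 12 were chosen against those Parent libraries, which favours this direction, so the count is a description. Directly between the siRNAs, 3 of the 12 differed, beside 5072 of all genes tested. They were HMOX1 (-0.62), ATF3 (-0.35) and UPP1 (-0.25), all of them lower with siLINC01534-2. For the other 9 the difference ranged from -0.06 for LURAP1L to 0.23 ± 0.09 for CXCL8, which does not show that the siRNAs acted alike.

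The largest decreases were of genes with varied functions. TSR3, which modifies 18S ribosomal RNA, stood at 56.6 and 60.6 FPKM in Parent and 13.3 and 12.2 FPKM with siLINC01534-2 (-2.11 ± 0.07, adjusted p = 1.5e-04). ZC3H13, a subunit of the complex that places N6-methyladenosine in mRNA, fell from 21.4 and 21.7 to 5.17 and 5.34 FPKM (-1.85 ± 0.05, adjusted p = 1.1e-04). BTG3, an antiproliferative gene of the same family as BTG1, fell from 45.7 and 47.9 to 14.7 and 14.98 FPKM (-1.59 ± 0.05, adjusted p = 1.6e-04). The siLINC01534-2 libraries of each pair were nearly level with each other and well under both Parent libraries, which the choice of these genes favours. SLC25A43, a mitochondrial carrier (-1.47), HEBP2, a heme-binding protein (-1.32), the histone gene HIST1H2BK (-1.29), PCYOX1L (-1.22) and GRK6, a kinase of G protein-coupled receptors (-1.22), came next. They were followed by MRPS6 of the mitochondrial ribosome (-1.17), SMARCE1 of the SWI/SNF chromatin remodelling complex (-1.12), ACO1, the cytosolic aconitase that also acts as iron regulatory protein (-1.11), and STMN1, the microtubule destabiliser stathmin (-1.09). STMN1 was the most abundant of them, at 208 and 205 FPKM in Parent and 99.4 and 93.7 FPKM with siLINC01534-2. All 12 were called lower with siLINC01534-2 than with siLINC01534-1, from -0.56 for STMN1 to -1.77 for TSR3. They were chosen for low values in the same siLINC01534-2 libraries, which favours this direction, so the calls are a description. Over all genes tested, which were not chosen in this way, 19.7% were called lower between the siRNAs and 22.6% higher. Against Parent, the siLINC01534-1 values of the 12 spread from -0.81 for BTG3 to 0.53 for PCYOX1L. With siLINC01534-1, 5 of the 12 were also called lower, namely BTG3, MRPS6, STMN1, TSR3 and ZC3H13. Of all 11977 genes tested, 2975 were called lower in that comparison. Their siLINC01534-2 values lay at -1.09 or below by the choice.

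**Figure D2:**
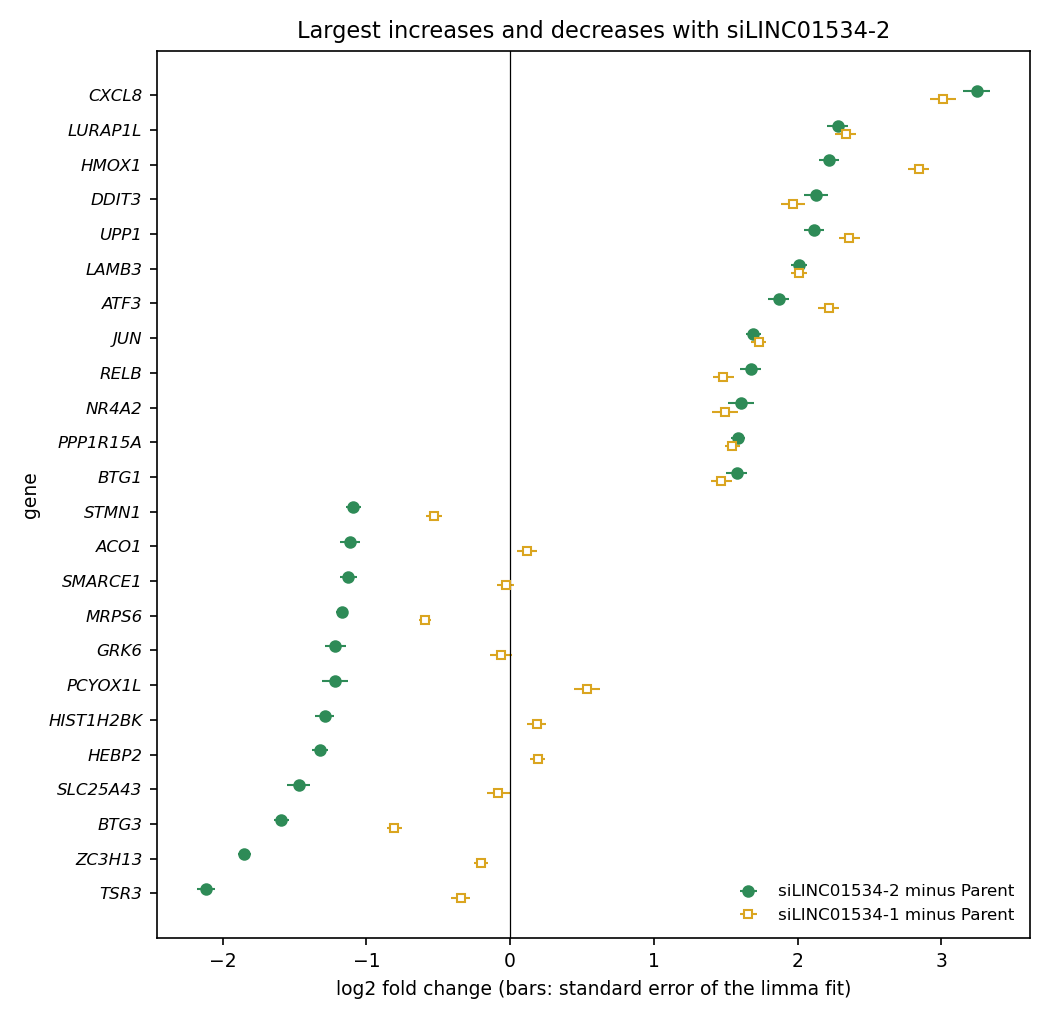
Log2 fold change (horizontal axis) of the 12 largest increases and 12 largest decreases with siLINC01534-2 (vertical axis, gene), as filled circles for siLINC01534-2 minus Parent and open squares for siLINC01534-1 minus Parent, with standard errors of the limma fit as bars. Both contrasts share the Parent libraries. The squares lie near the circles for the increases and nearer to 0 than the circles for the decreases. Of the decreases, 5 were also called lower with siLINC01534-1. Genes were chosen on the siLINC01534-2 values.

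Short sequence matches were then set against the log2 fold changes, as loss of mRNAs that match a seed is a known property of siRNAs. For 10602 of the tested genes (88.5%) a coding transcript of the GENCODE annotation of GRCh37 could be searched. The longest one was taken for each gene, by length and not by its expression in these cells. The bases that pair with positions 2 to 8 of the antisense strand designed against the site are TTCGAGT. The 233 genes with TTCGAGT in the 3′ UTR had a median log2 fold change of -0.018, against 0.006 for the others, and it ranked 6286 of 16183 7-mers from the lowest when 7-mers held by at least 60 genes were ordered by the mean change of their genes relative to its spread. For the other strand of the duplex, which reads as the site, the bases that pair with positions 2 to 8 are CCTCGTT, searched after the other values were seen. The 354 genes with CCTCGTT in the 3′ UTR had a median of -0.016, with 63 called lower and 36 higher, and it ranked 702 from the lowest. With siLINC01534-1 their median was 0.002. The 287 genes with CCTCGTT in the coding sequence but not the 3′ UTR had a median of -0.038, with 50 called lower and 19 higher.

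The 7-mer of lowest rank with siLINC01534-2 was AACGAGA. It was picked after the values were seen, as the extreme of 16183 7-mers on the same libraries, so its values are a description and no test was made. Before it, the strands of the siRNA had been searched for matches of other lengths and kinds, and shorter and longer words had been scanned under other thresholds. The 318 genes with AACGAGA in the 3′ UTR had a median log2 fold change of -0.092, against 0.008 for the other genes, and -0.099 and -0.098 in the siLINC01534-2 libraries taken singly. Of them 90 were called lower and 19 higher, so that 6.84% of the genes called lower and 1.52% of those called higher held it, against 2.999% of all genes searched. The 842 genes with AACGAGA in the coding sequence but not the 3′ UTR had a median of -0.071, with 183 called lower and 57 called higher, and the 53 genes with it in the 5′ UTR alone had a median of 0.004. With siLINC01534-1 the same 3′ UTR group had a median of -0.008 and the coding group -0.003. The reverse complement, TCTCGTT, gave -0.004 in 392 genes with it in the 3′ UTR, 50 of them called lower and 49 higher. In the 226 genes with TCTCGTT in the coding sequence but not the 3′ UTR the median was -0.062, near that of the AACGAGA coding group, with 42 called lower and 20 higher. The first 6 letters of AACGAGA also stand at positions 2 to 7 of the target site, where the seventh is G, and AACGAGG had a median of -0.005 in 253 genes.

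**Figure D3:**
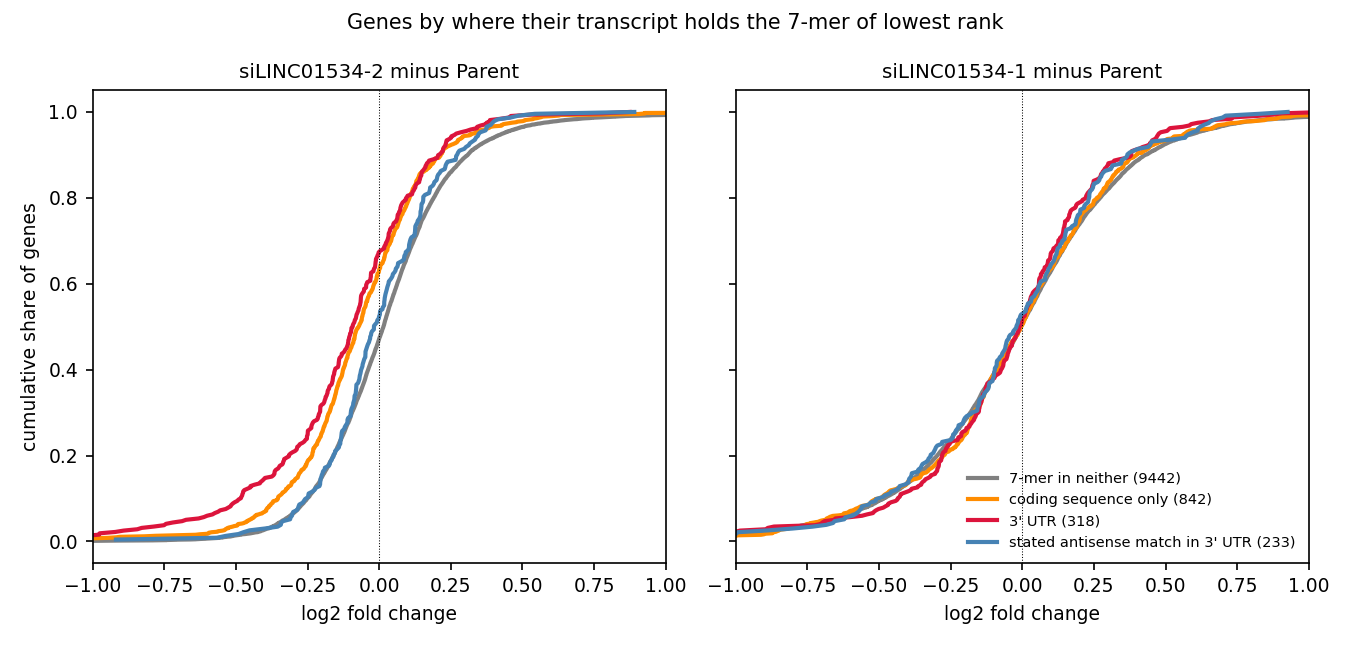
Cumulative share of genes (vertical axis) by log2 fold change (horizontal axis) with siLINC01534-2 on the left and siLINC01534-1 on the right, each against Parent. Red marks the 318 genes with the 7-mer of lowest rank in the 3′ UTR, orange the 842 with it in the coding sequence only, grey the 9442 with it in neither and blue the 233 with the designed antisense match in the 3′ UTR. The red and orange curves lie to the left of the grey one on the left side only, and the 7-mer was chosen on these siLINC01534-2 values.

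AACGAGA was found in the transcripts of 5 of the 11 largest decreases that matched a coding transcript, of 1 of the 12 largest increases and of 1215 of the 10602 genes searched. Windows of 29 bases around it are printed for those 5 genes, one each except for ZC3H13, on the strand of the transcript in GRCh37, with the 7-mer in capitals. The ZC3H13 windows are chr13:46549824-46549852 and chr13:46559867-46559895 (minus strand), 2 of the 12 matches in its coding sequence. Those of SLC25A43 at chrX:118586981-118587009 (plus), GRK6 at chr5:176860625-176860653 (plus) and STMN1 at chr1:26228119-26228147 (minus) are also exonic and coding. That of HEBP2 at chr6:138737126-138737154 (plus) lies in its 3′ UTR. GRK6 and HEBP2 hold 2 matches each, and the HEBP2 match not printed is in the coding sequence.
ZC3H13 first window: gagagatcgggAACGAGAacgagacaggg
ZC3H13 second window: tactaggggcaAACGAGAcagagaaaagg
SLC25A43: aagttcttcaaAACGAGAaaaccgaagcc
GRK6: ccatggcgctgAACGAGAagcagatcctg
STMN1: gctggctgagaAACGAGAgcacgagaaag
HEBP2: accaggcctatAACGAGActtaagtcaca
ZC3H13 fell by 1.85 on the log2 scale and carried the most matches of these genes. TSR3, BTG3, PCYOX1L, MRPS6, SMARCE1 and ACO1, which include the strongest decrease, did not contain AACGAGA in the transcript searched, and HIST1H2BK had no coding transcript under that symbol.

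Genes of the PERK branch rose together. Of the 17 tested members of the list of PERK, ATF4 and CHOP stress factors, 14 rose and 0 fell, with a median log2 fold change of 0.85, and between 12 and 13 were called when any 1 library was left out. EIF2AK3, which encodes PERK, went from 4.76 and 4.75 FPKM in Parent to 8.0996 and 9.62 FPKM with siLINC01534-2 (0.77 ± 0.10, adjusted p = 0.0063), a call lost in 2 of 4 fits without 1 library (largest adjusted p = 0.052). ATF4 moved little, from 349.7 and 350.0 to 386 and 378 FPKM (0.13 ± 0.03, adjusted p = 0.034), and lost its call in each of those fits. With siLINC01534-1 it reached 567 and 574 FPKM, and the siRNAs differed in ATF4 by -0.58 ± 0.03 (adjusted p = 2.1e-04). Beyond DDIT3, ATF3 and PPP1R15A, the list included CHAC1, a glutathione-degrading enzyme, at 8.47 and 7.99 FPKM in Parent and 23.6 and 24.4 FPKM with siLINC01534-2 (1.44). It also included SESN2, a stress-induced inhibitor of mTORC1 signalling (1.22), and the death receptor TNFRSF10B (0.64). The change of ATF4 mRNA was small beside those of CHAC1 and DDIT3, known targets of ATF4.

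Chaperones of the ER lumen rose as a group. Of 19 members, 16 rose and 0 fell, with a median of 0.42, and 12 to 14 were called without any 1 library. HSPA5, the master chaperone BiP, stood at 255 and 254 FPKM in Parent and 695 and 757 FPKM with siLINC01534-2 (1.51 ± 0.05, adjusted p = 1.5e-04). HYOU1 (0.81), HSP90B1 (0.78) and DNAJC3, an ER cochaperone (0.63), followed, and HSPA5 differed between the siRNAs by only -0.01 ± 0.05. In the list of IRE1, ATF6 and ER-associated degradation 11 of 22 rose and 0 fell, with a median of 0.27. Without 1 library the number was 6 to 9, lowest without Parent 1 and without siLINC01534-2 replicate 2. The BiP cochaperone DNAJB9 went from 6.19 and 5.99 to 18.1 and 18.9 FPKM (1.46) and remained below siLINC01534-1 (-0.94, adjusted p = 2.6e-04). HERPUD1 (1.37), SEL1L (0.80) and UBE2J1 (0.63), which act in the disposal of ER proteins, rose too. The sensors themselves did not pass the test, with ERN1 at 0.28 ± 0.16 (adjusted p = 0.27) and ATF6 at 0.16 ± 0.05 (adjusted p = 0.061). Of 36 genes of the translocon, N-glycosylation and COPII vesicles, 16 rose and 0 fell with a median of 0.18, led by the coat protein SEC24D (0.83) and the signal peptidase subunit SEC11C (0.39), but 2 to 5 remained called without any 1 library.

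**Figure D4:**
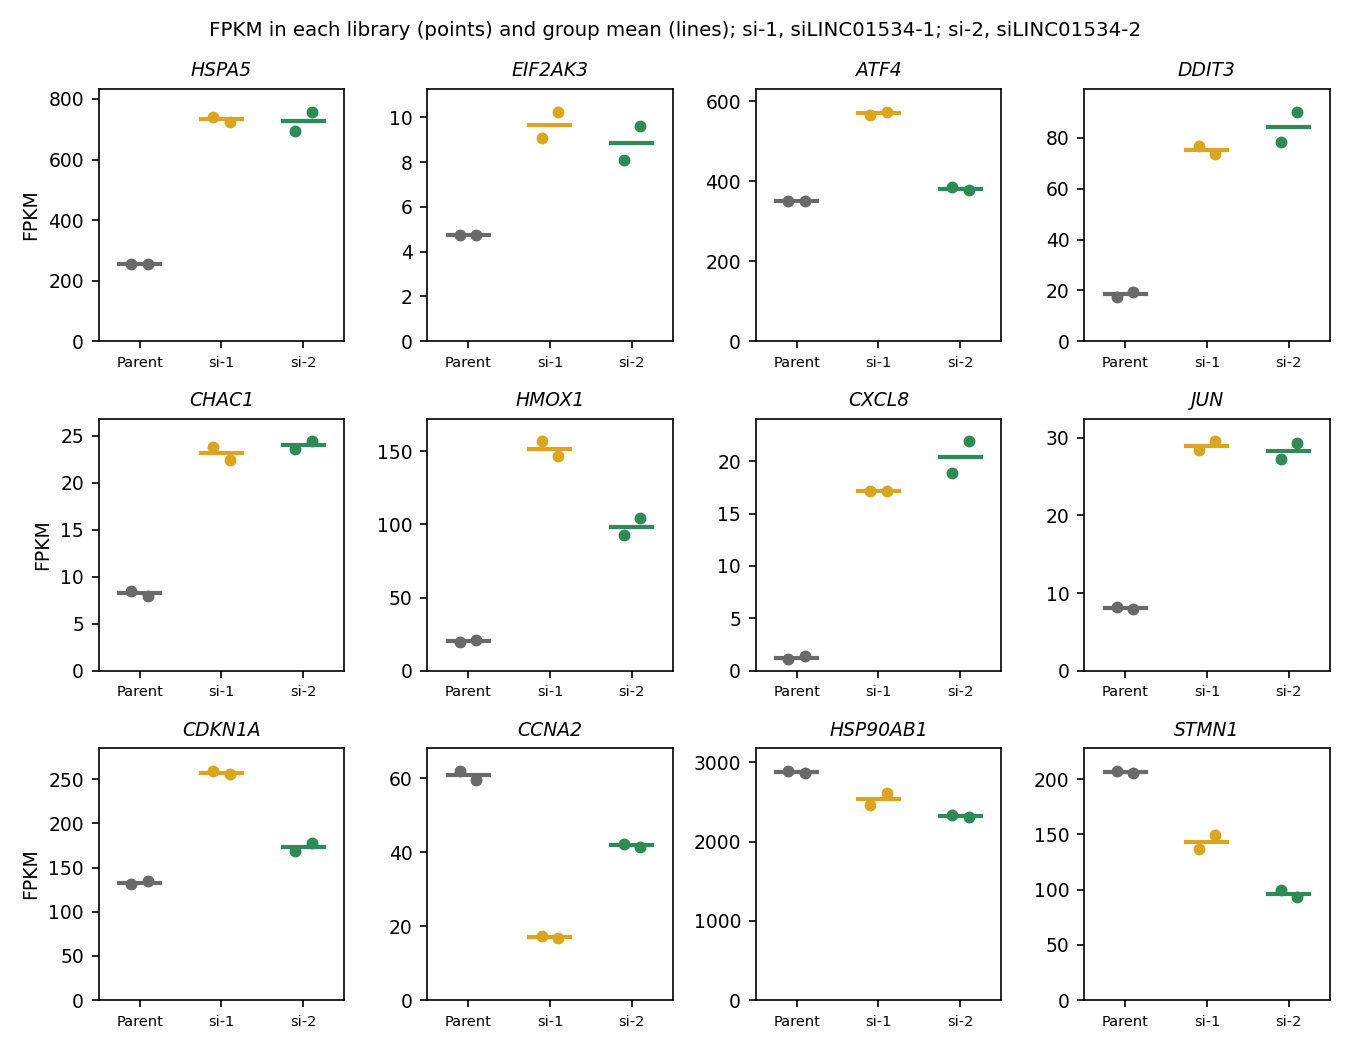
FPKM (vertical axes, from 0) in each of the 6 libraries as points, with the mean of each group as a line, for 12 genes of the stress and cell cycle programmes. Libraries labelled siLINC01534-2 are marked si-2 and those labelled siLINC01534-1 are marked si-1. HSPA5, DDIT3 and JUN stand at near levels with both siRNAs, while ATF4, HMOX1, CDKN1A and CCNA2 lie nearer to Parent with siLINC01534-2 than with siLINC01534-1.

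Promoters were searched on both strands for 4 short motifs in RefSeq windows of GRCh38.p14, from 250 bases before to 50 bases after the start of 9591 tested genes (80.1%). The motifs were chosen with results known. The ER stress element, CCAAT and CCACG with 9 free bases between them, was in 15 promoters (0.156%). These included 11 of 1079 genes called higher (1.02%) and 0 of 1171 called lower. It was in 6 of 18 ER chaperone promoters (HSPA5, HSP90B1, CALR, CANX, PDIA6 and CRELD2). The CEBP-ATF element, TGATG and AA with 1 free base between them, was in 2.46% of all promoters, 3.15% of those called higher and 1.79% of those called lower. The AP-1 site, TGA and TCA with 1 free base between them, was in 6.79% of all, 10.4% of those called higher and 4.61% of those called lower. The heat shock element, GAA, TTC and GAA with 2 free bases between parts, was in 47 promoters (0.490%). These included 5 genes called higher (0.463%) and 12 called lower (1.02%), which are small counts. It was in 5 of 16 promoters of cytosolic heat shock genes. Each match is a stretch of letters and not a shown binding site. The 250 bases before the start are printed for 3 genes with motif letters in capitals, namely HSPA5 (chr9:125241344-125241593, minus), CHAC1 (chr15:40953221-40953470, plus) and HSPA8 (chr11:123062137-123062386, minus), which hold the ER stress element with an AP-1 site, the CEBP-ATF element on the opposite strand and a pair of heat shock elements.
HSPA5 promoter: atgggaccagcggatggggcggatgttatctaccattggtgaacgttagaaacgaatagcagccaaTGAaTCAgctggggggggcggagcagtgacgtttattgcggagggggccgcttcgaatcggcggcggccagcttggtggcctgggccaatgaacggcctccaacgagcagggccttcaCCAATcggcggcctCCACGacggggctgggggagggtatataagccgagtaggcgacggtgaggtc
CHAC1 promoter: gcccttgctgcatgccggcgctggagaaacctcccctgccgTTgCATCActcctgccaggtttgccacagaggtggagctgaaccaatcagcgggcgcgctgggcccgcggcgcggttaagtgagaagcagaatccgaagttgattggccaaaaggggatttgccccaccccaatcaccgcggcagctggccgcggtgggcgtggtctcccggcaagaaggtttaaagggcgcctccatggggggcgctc
HSPA8 promoter: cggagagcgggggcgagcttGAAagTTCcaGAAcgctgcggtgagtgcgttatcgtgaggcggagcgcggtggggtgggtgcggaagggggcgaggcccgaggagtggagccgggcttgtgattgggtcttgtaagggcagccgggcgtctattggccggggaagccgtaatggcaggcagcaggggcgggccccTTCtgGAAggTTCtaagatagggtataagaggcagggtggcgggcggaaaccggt
HSPA5 and CHAC1 rose, and HSPA8, the constitutive cytosolic HSP70, fell by 0.22 on the log2 scale, from 1858 and 1881 FPKM in Parent to 1616 and 1597 FPKM with siLINC01534-2. HSPA8 was picked for its promoter after its values were seen.

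Chaperones outside the ER went the other way. Of 18 cytosolic heat shock genes, 14 fell and 1 rose, with a median of -0.26, and 5 to 9 were called lower without any 1 library. HSPB1, the small heat shock protein HSP27, went from 646 and 671 FPKM in Parent to 459 and 449 FPKM with siLINC01534-2 (-0.54 ± 0.03, adjusted p = 0.001). HSPA1B, the inducible HSP70, went from 79.02 and 74.2 to 51.6 and 53.7 FPKM (-0.53), and the HSP90 cochaperone FKBP4 fell by 0.44. HSP90AB1, the constitutive HSP90, had the largest loss in FPKM of the genes that fell, from 2894 and 2868 to 2337 and 2309 FPKM (-0.31), although its call was lost in 3 of 4 fits without 1 library. DNAJB4, an HSP40 cochaperone, was the exception, rising from 14.2 and 13.4 to 19.9 and 20.9 FPKM (0.53). Of 13 mitochondrial chaperones and proteases 8 fell and 0 rose, with a median of -0.23, among them DNAJA3 (-0.50), TRAP1 (-0.43) and HSPD1, the chaperonin HSP60 (-0.31), and 3 to 6 stayed under the threshold without any 1 library. For HSPD1 the siRNAs lay far apart, with 879 and 862 FPKM for siLINC01534-2 and 299 and 298 FPKM for siLINC01534-1. Proteasome subunits changed least, with 11 of 31 falling, 0 rising and a median of -0.10, led by PSMD3 (-0.30), and 1 to 4 remained called without any 1 library. Against siLINC01534-1 25 of the 31 subunits were lower and 3 were higher, beside 19.7% lower and 22.6% higher of all genes tested.

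**Figure D5:**
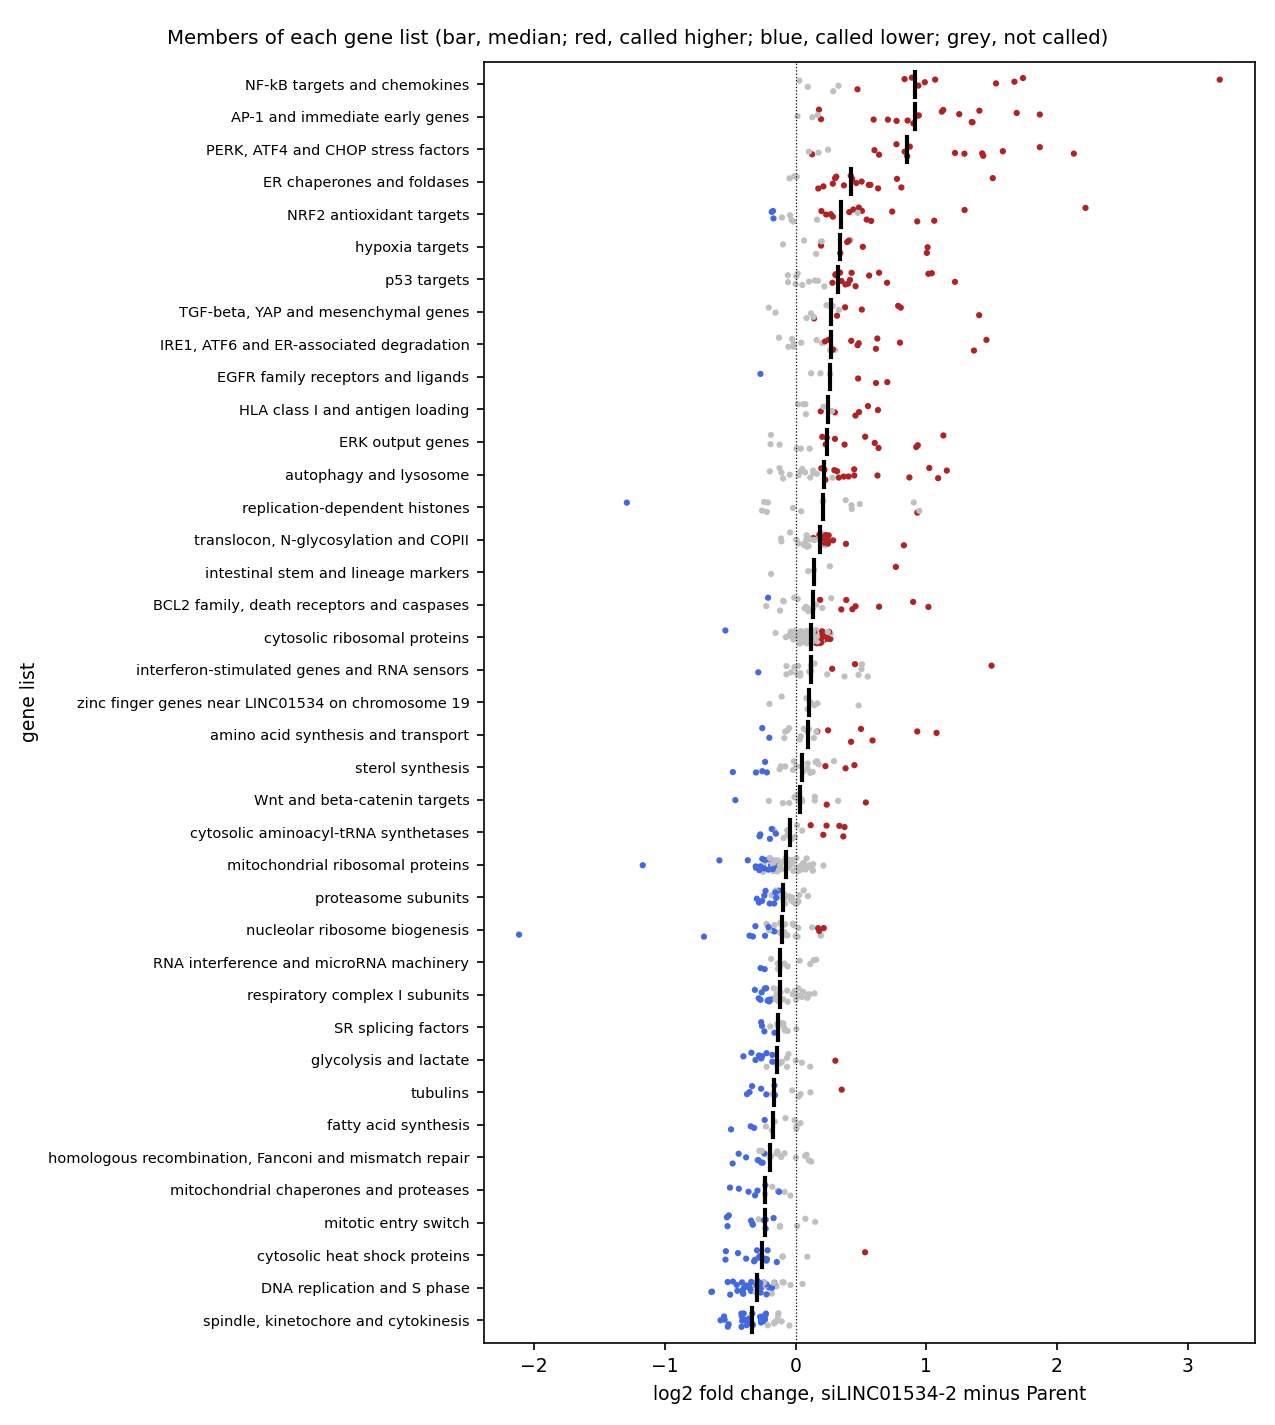
Log2 fold change of siLINC01534-2 minus Parent (horizontal axis) for each tested member (points) of the gene lists with at least 5 tested members (vertical axis), ordered by the list's median (black bar). Red points were called higher, blue called lower and grey not called. NF-kB, AP-1 and PERK lists lie highest, and the spindle, replication and heat shock lists lie lowest. Members low in Parent could pass the filter through the siRNA libraries.

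Immediate early and inflammatory transcription factors had some of the highest list medians. Among AP-1 and immediate early genes 17 of 20 rose and 0 fell, with a median of 0.91, and 15 were called without any 1 library. FOS, a partner of JUN in AP-1, went from 2.48 and 2.54 to 8.05 and 8.57 FPKM (1.41), JUN from 8.18 and 7.92 to 27.2 and 29.3 FPKM, and the small MAF protein MAFF from 5.29 and 6.48 to 17.3 and 15.8 FPKM (1.35). NF-kB targets and chemokines rose in 10 of 14 cases with 0 falling and a median of 0.92, and 8 to 10 were called without any 1 library. Beside CXCL8 and RELB, they included CXCL3, another neutrophil chemokine, at 0.418 and 0.524 FPKM in Parent and 3.88 and 3.94 FPKM with siLINC01534-2 (1.74), and BIRC3, an inhibitor of apoptosis (1.53). The 4 named here were low in Parent, so that the pseudocount of 1 FPKM understates their change. CXCL3 passed the filter only through the siRNA libraries, which favours members that rose, and it enters the list's count and median. Of the 21 NF-kB list members 7 did not pass. With no filter on low values, 13 of 20 rose and 0 fell. Of 17 ERK output genes 11 rose and 0 fell with a median of 0.24, among them the phosphatases DUSP8 (1.13), DUSP5 (0.94) and DUSP1 (0.92). DUSP5 stood at 54.1 and 54.6 FPKM in Parent and at 105 and 105 FPKM with siLINC01534-2, and its levels with both siRNAs were within 0.00 ± 0.03 of each other. Without 1 library, 6 or 7 ERK output genes were called, 6 of them in each fit but the one without siLINC01534-2 replicate 1. Of 7 EGFR family genes, the ligands EREG (0.62) and AREG (0.70) and EGFR itself (0.48) rose while ERBB2 fell by 0.27, and only 1 or 2 of the 3 increases remained without any 1 library. The decrease of ERBB2 was called only without siLINC01534-2 replicate 2.

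Genes of the antioxidant, hypoxia, and autophagy and lysosome lists rose in part. Of 24 NRF2 antioxidant targets 15 rose and 3 fell, with a median of 0.35, and 10 to 12 of the increases and 0 of the decreases were called without any 1 library. Next to HMOX1 they included OSGIN1, an oxidative stress response gene, from 15.6 and 14.9 to 37.8 and 39.7 FPKM (1.29), and GCLC, the catalytic subunit of the rate-limiting enzyme of glutathione synthesis, from 25.1 and 25.6 to 52.6 and 55.3 FPKM (1.06). GCLC was higher with siLINC01534-2 than with siLINC01534-1 (0.33, adjusted p = 0.0026), whereas HMOX1 was lower. The ferritin chains gave the largest gains in FPKM, with FTL going from 2244 and 2345 to 3491 and 3206 FPKM (0.54) and FTH1 from 1740.5 and 1831 to 2658 and 2675 FPKM (0.58). Of 29 autophagy and lysosome genes 15 rose and 0 fell, with a median of 0.22, and 7 or 8 were called without any 1 library (7 without Parent 1). The autophagy receptor SQSTM1 rose from 109.9 and 114 to 252 and 249 FPKM (1.16), with the autophagosome proteins MAP1LC3B (1.09), WIPI1 (1.02) and GABARAPL1 (0.87). GABARAPL1 was lower with siLINC01534-2 than with siLINC01534-1 (-0.90, adjusted p = 3.2e-04). Of 13 hypoxia targets 7 rose and 0 fell with a median of 0.34, led by NDRG1, a stress-responsive gene (1.01), but 1 to 3 remained without any 1 library, the fewest without siLINC01534-2 replicate 2. Of 16 genes of the TGF-beta, YAP and mesenchymal list 7 rose and 0 fell with a median of 0.27, among them the matricellular protein CYR61 (0.81), and 4 or 5 remained called without any 1 library (4 without Parent 1 or siLINC01534-2 replicate 2).

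Of 26 p53 targets 16 rose and 0 fell, with a median of 0.32, and 9 to 14 were called without any 1 library, the fewest without siLINC01534-2 replicate 2. GADD45A, a growth arrest gene, went from 32.1 and 32.5 to 64.3 and 71.1 FPKM (1.04). BBC3, the proapoptotic BH3-only protein PUMA, went from 9.55 and 10.7 to 22.6 and 20.5 FPKM (1.02), and TP53I3, an oxidoreductase, rose by 0.70. SESN2 and TNFRSF10B are in this list and in the PERK list. BBC3, FAS, BAX and TNFRSF10B are also in the BCL2 list below, and ATF3 is in both the PERK and AP-1 lists. Counts of lists that share members are not separate. CDKN1A, the cell cycle inhibitor p21, shown among the levels by library, stood at 132 and 135 FPKM in Parent and 169 and 178 FPKM with siLINC01534-2 (0.38, adjusted p = 0.0035), and was chosen for that plot after its values were seen. In the list of BCL2 family genes, death receptors and caspases 8 of 23 rose and 1 fell, with a median of 0.13. They were headed by BBC3, PMAIP1, the BH3-only protein NOXA (0.90), TNFRSF10B (0.64) and FAS (0.46), and 3 to 6 were called without any 1 library, with 3 in each fit except that without siLINC01534-2 replicate 1. The 1 decrease was called only without Parent 1.

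Cell cycle genes fell together by small amounts. Of 39 genes of the spindle, kinetochore and cytokinesis, 30 fell and 0 rose, with a median of -0.33. Of 42 genes of DNA replication and S phase 31 fell and 0 rose, with a median of -0.29, and of 16 genes of the mitotic entry switch 10 fell and 0 rose, with a median of -0.23. Fewer were called without 1 library, 11 to 18 spindle genes, 14 to 18 replication genes and 4 to 6 mitotic entry genes, in each list the most without siLINC01534-2 replicate 1. CCNA2, cyclin A2, went from 62.03 and 59.6 FPKM in Parent to 42.4 and 41.5 FPKM with siLINC01534-2 (-0.52 ± 0.04, adjusted p = 0.0018). FOXM1, a transcription factor of the mitotic programme, went from 57.3 and 55.5 to 40.6 and 37.5 FPKM (-0.52), and the mitotic kinase PLK1 from 106 and 111 to 76.98 and 74.8 FPKM (-0.51). The spindle proteins NUSAP1 (-0.57) and TPX2 (-0.55), the origin recognition subunit ORC6 (-0.64), and the polymerase subunits POLE2 (-0.64) and POLA1 (-0.50) fell by similar amounts. CDK1, the kinase that drives mitotic entry, was at 85.99 and 83.96 FPKM in Parent and 71.8 and 67.7 FPKM with siLINC01534-2 and did not pass the test (-0.28 ± 0.09, adjusted p = 0.078). Its activating phosphatases CDC25B (-0.17, adjusted p = 0.03) and CDC25C (-0.33, adjusted p = 0.038) fell past the threshold but lost the call in all 4 fits without 1 library. Directly against siLINC01534-1, 29 of 39 spindle genes were higher with siLINC01534-2 and 2 were lower, and for mitotic entry 11 of 16 were higher and 1 was lower. Of all genes tested, 22.6% were called higher and 19.7% lower in that comparison. CCNA2 differed by 1.25 ± 0.04 (adjusted p = 7.3e-05) and CDK1 by 0.71 ± 0.09 (adjusted p = 0.0027). CCNA2 and CDK1 thus lay between Parent and siLINC01534-1. Of 23 genes of homologous recombination, Fanconi and mismatch repair 7 fell and 0 rose with a median of -0.20, FANCD2 first (-0.48), and 1 to 3 remained without any 1 library. Tubulins fell in 7 of 13 cases with 1 rising, among them TUBA1B (-0.35) and TUBB (-0.33), with 3 or 4 called lower without any 1 library (3 without Parent 2 or siLINC01534-2 replicate 2).

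Metabolic lists were mixed. Of 20 genes of amino acid synthesis and transport 7 rose and 2 fell, with a median of 0.09, and 4 to 6 of the increases were called without any 1 library. Of the 2 decreases 1 was called without Parent 1 and 0 in the other 3 fits. The rises were in transporters, with SLC3A2, the heavy chain of several amino acid exchangers, going from 194 and 205 to 407 and 439 FPKM (1.08), the cystine transporter SLC7A11 reaching 17.6 and 19.8 FPKM (0.93), and the neutral amino acid transporter SLC38A2 rising by 0.50. Of 20 cytosolic aminoacyl-tRNA synthetases 6 rose and 5 fell, with a median of -0.04. WARS and SARS each rose by 0.37, FARSB fell by 0.27, and 3 or 4 increases and 1 or 2 decreases remained without any 1 library (3 increases without Parent 1 or siLINC01534-2 replicate 2). AARS rose against Parent (0.34), while it stood at 39.6 and 41.8 FPKM with siLINC01534-1 against 100.1 and 99.9 FPKM with siLINC01534-2. Of 24 sterol synthesis genes 3 rose and 5 fell, with a median of 0.05, and 1 or 2 in each direction were called without any 1 library. HMGCS1, an early enzyme of the pathway, rose from 33.5 and 31.8 to 43.6 and 46.4 FPKM (0.45). The 3 sterol increases were a share near the 11.2% of all genes tested that were called higher. Directly against siLINC01534-1, 18 of the 24 were higher with siLINC01534-2 and 0 were lower, beside 22.6% and 19.7% of all genes tested. Fatty acid synthesis genes fell in 4 of 12 cases with 0 rising, namely ELOVL6 (-0.49), ACLY (-0.34), ACACA (-0.32) and FASN (-0.24), of which 2 were called without Parent 1 and without Parent 2. In glycolysis 9 of 21 fell and 1 rose, PFKM (-0.40) and PFKP (0.31) being the strongest of the 2 directions, and 2 to 5 were called lower without any 1 library. GAPDH, often used as a reference gene, did not pass the test (-0.12 ± 0.04, adjusted p = 0.084).

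Among genes of translation and the mitochondrion, 22 of 76 cytosolic ribosomal protein genes rose and 1 fell, with a median of 0.12, but only 0 (without Parent 1), 1 (without siLINC01534-2 replicate 2), 2 (without siLINC01534-2 replicate 1) and 5 (without Parent 2) of the increases remained. RPL24 was the one that fell, from 1102 and 1163 to 806 and 756 FPKM (-0.54 ± 0.05, adjusted p = 0.0031), and it stood at 1081 and 1137 FPKM with siLINC01534-1. RPLP1 (0.27), RPS18 (0.26) and the elongation factor EEF1A1 (0.26) were among the largest gains in FPKM and lost their calls in all 4 of these fits. Of 77 mitochondrial ribosomal protein genes 16 fell and 0 rose, with a median of -0.07, MRPS6 by far the most, and 3 to 9 were called without any 1 library. Of 37 subunits of respiratory complex I 10 fell and 0 rose, with a median of -0.12, and 1 or 2 remained, 1 of them without either siLINC01534-2 library. Among 32 nucleolar genes of ribosome biogenesis 9 fell and 3 rose with a median of -0.10. After TSR3, the pseudouridine synthase DKC1 fell the most, from 116 and 112 to 69.4 and 70.03 FPKM (-0.70 ± 0.03, adjusted p = 4.3e-04), and NPM1, a nucleolar chaperone, fell from 1946 and 1977 to 1599 and 1572 FPKM (-0.31). Without any 1 library 3 or 4 of the decreases and 0 of the increases were called, 3 without Parent 1 or siLINC01534-2 replicate 2. Other large losses in FPKM were ACTB, beta-actin (-0.36), PTMA, prothymosin alpha (-0.31), and TMSB10, a thymosin that binds actin (-0.28), of which TMSB10 lost its call in all 4 fits without 1 library and PTMA in 1.

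Of 21 intestinal stem and lineage markers 5 passed the filter, of which HES1, a Notch target, rose from 8.99 and 10.3 to 15.9 and 18.3 FPKM (0.77, adjusted p = 0.0053) and the other 4 did not pass the test. PROM1, which encodes the surface marker CD133, was at 0.14 ± 0.06 (adjusted p = 0.17), CD44, a hyaluronan receptor, at 0.10 ± 0.03 (adjusted p = 0.071), BMI1, a Polycomb protein, at -0.19 ± 0.23 (adjusted p = 0.6) and CDX2, an intestinal transcription factor, at 0.26 ± 0.12 (adjusted p = 0.18). DCLK1 (0.282 and 0.207 FPKM in Parent, 0.304 and 0.197 FPKM with siLINC01534-2) and LGR5 (0.024 and 0.024 FPKM in Parent, listed at 0 in both siLINC01534-2 libraries) lay under the filter. Of 14 Wnt and beta-catenin targets 2 rose and 1 fell, SOX9 falling by 0.46 and NOTUM (0.54) and CCND1 (0.24) rising, of which SOX9 alone stayed called without any 1 library. Of 23 interferon-stimulated genes and RNA sensors 3 rose and 1 fell, with a median of 0.12, and ISG20, an exonuclease, led them, from 0.859 and 0.575 to 3.81 and 3.87 FPKM (1.50), with 1 or 2 increases called without any 1 library (2 without Parent 2). ISG20 was low in Parent and passed the filter only through the siRNA libraries. The increases in the Wnt and interferon lists were a share near the 11.2% of all genes tested that were called higher. Of 12 HLA class I and antigen loading genes 6 rose and 0 fell, with a median of 0.25, such as HLA-B (0.55), and 2 or 3 remained without any 1 library (2 without Parent 1 or siLINC01534-2 replicate 2). HLA class I genes share reads, so their single values are uncertain.

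The remaining lists held few calls. Of all genes tested, 11.2% were called higher and 11.9% lower against Parent, and 22.6% higher and 19.7% lower between the siRNAs. SR splicing factors fell in 4 of 13 cases, led by SRSF8 (-0.26) and SRSF7 (-0.26), with 1 or 2 called without any 1 library (1 without siLINC01534-2 replicate 2). Of 13 genes of the RNA interference and microRNA machinery, AGO1 (-0.27) and PRKRA (-0.24) fell, and neither was called without any 1 library. Of 24 zinc finger genes near LINC01534 on chromosome 19, 8 passed the filter and 0 were called, with log2 values from -0.20 to 0.48. Of 4 tested metallothioneins MT1X rose (0.27, adjusted p = 0.046), a call that no fit without 1 library kept, and all 4 were higher with siLINC01534-2 than with siLINC01534-1. Of 16 tested histone genes HIST1H2BK fell and HIST1H2BC rose (0.93, adjusted p = 0.048), the second keeping its call in 1 of 4 fits without 1 library. Replication-dependent histone mRNAs lack poly(A) tails and are near-identical in sequence, so poly(A) libraries hold little of them and their reads can be split between copies.

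Set directly against each other, the siRNAs differed in 5072 genes, 2711 higher and 2361 lower with siLINC01534-2. Of the 1345 genes higher with siLINC01534-2 than in Parent, 441 were also higher than with siLINC01534-1, 243 were lower and 661 were not called between the siRNAs. Of the 1428 lower than in Parent, 583 were lower than with siLINC01534-1, 317 were higher and 528 were not called between them. The genes with the greatest difference between the siRNAs, among those called against Parent, were the following. TMEM109, DAZAP2, COMMD7, PRR11, SKA2 and GNG12 were higher than with siLINC01534-1 by 1.56 to 1.87 on the log2 scale. All 6 differed from Parent by less with siLINC01534-2 (-0.54 to 0.47) than with siLINC01534-1 (-2.16 to -1.25). DAZAP2, for example, had 98.1 and 98.5 FPKM in Parent, 112 and 108 FPKM with siLINC01534-2 and 32.3 and 31.6 FPKM with siLINC01534-1. PRR11 was lower than Parent with both, at 20.8 and 20.01 FPKM in Parent, 13.9 and 13.5 FPKM with siLINC01534-2 and 3.83 and 3.72 FPKM with siLINC01534-1. TSR3, PCYOX1L, ZC3H13, HEBP2 and HIST1H2BK were lower than with siLINC01534-1, and differed from Parent by more with siLINC01534-2 (-2.11 to -1.22) than with siLINC01534-1 (-0.34 to 0.53). PCYOX1L lay on opposite sides of Parent, at 6.62 and 7.61 FPKM in Parent, 2.298 and 2.66 FPKM with siLINC01534-2 and 10.9 and 10.5 FPKM with siLINC01534-1. HEBP2, for example, was at 30.8 and 32.3 FPKM in Parent, 12.3 and 11.7 FPKM with siLINC01534-2 and 37.4 and 34.9 FPKM with siLINC01534-1. ARRDC4, an arrestin domain protein, rose with siLINC01534-2 from 1.46 and 1.51 to 4.18 and 4.95 FPKM (1.16) and was at 14.05 and 13.5 FPKM with siLINC01534-1.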

How the data were processed

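Poly(A)-selected RNA-seq of HCT116 cells was analysed in 2 Parent, 2 siLINC01534-1 and 2 siLINC01534-2 libraries, grouped by the labels. The authors sequenced stranded single-end libraries, mapped the reads to hg19 with TopHat2 2.0.13, Bowtie2 2.2.3 and SAMtools 0.1.19, and deposited FPKM from Cufflinks 2.2.1. The annotation behind the symbols is not given in the sources used here, and the deposited FPKM carry no read counts. From them, log2(FPKM + 1) was computed for genes with a mean of at least 1 FPKM over the 6 libraries and fitted with limma 3.58.1 in R 4.3.3 (1 mean per group, all 6 libraries, eBayes with a trend, two-sided), with Benjamini-Hochberg adjustment over all 12203 genes. Symbols beginning MIR, SNORD, SNORA, SCARNA or RNU were set aside, with host genes ending in HG kept, a rule on symbols set after values were seen. Members, gene lists, motifs and tests were chosen with earlier results of these data known.

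Named genes were the 12 largest increases and decreases past the threshold with separate libraries and at least 5 FPKM in the higher group, the 5 largest gains and losses in FPKM, up to 4 called members of each list, the genes the study names, and the 6 largest differences between the siRNAs in each direction. Some genes that this rule takes are not reported here. Lists were described by counts and medians, without a set test. Depth was estimated by the number of reads at which the largest share of low values became whole within 0.04 read (47.3% to 53.5% of them, in steps of 50000 reads). Promoters were matched by current symbol for 9009 genes. The match was then widened in 2 steps to older symbols, because it fell short of 80% each time, and reached 9591. Transcripts came from GENCODE on GRCh37. Python 3.11.15, pandas 2.3.3 and numpy 2.4.6 were used. In simulated data for the 11977 genes of siLINC01534-2 against Parent, in which 200 genes were shifted by a log2 value of 1, the fit recovered 175 and called 12 others. In the real data 2676 of the 2773 called genes changed by less than that, so the simulation does not describe the smaller calls. It also left out the short RNA genes that the main fit keeps. Alternatives changed the pseudocount, filter, scaling, block, trend or libraries.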

Additional observations from a re-analysis of the deposited data

Results flagged for a closer look

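Of the 5072 genes that differed between the siRNAs, 12 are given here, the 6 largest differences in each direction among genes also called against Parent with siLINC01534-2, with adjusted p-values of 3.2e-04 or less in the limma fit. The comparison between the siRNAs and that with Parent share the siLINC01534-2 libraries, so the calls that selected these genes are not independent. On the log2 scale siLINC01534-2 minus siLINC01534-1 was 1.87 for TMEM109, 1.75 for DAZAP2, 1.72 for COMMD7, 1.62 for PRR11, 1.59 for SKA2 and 1.56 for GNG12. It was -1.77 for TSR3, -1.75 for PCYOX1L, -1.65 for ZC3H13, -1.52 for HEBP2, -1.48 for HIST1H2BK and -1.41 for ARRDC4. In each of the 12 genes both siLINC01534-2 libraries lay on one side of both siLINC01534-1 libraries. The genes were chosen for the size of that difference, so this adds no support. PRR11 and SKA2 are neighbouring genes that share a promoter region.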

How the results depend on the processing

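Against 2773 genes called with siLINC01534-2, between 1866 (only the 4 libraries) and 3345 (short RNA genes removed before the fit) were called under the alternatives that kept every library of the comparison, and between 834 and 1164 with 1 library left out, where the fit has fewer libraries. The 155 genes past 2-fold became 93 with a filter at 5 FPKM and 257 without a filter, by the number of genes tested, and 109 to 152 with 1 library left out. Between the siRNAs 5072 genes became 3352 to 4493 with 1 library left out, the fewest without siLINC01534-2 replicate 1. A replicate block left 1978 genes called against Parent and 4415 between the siRNAs. Deviations of same-numbered Parent and siLINC01534-2 libraries had a correlation of -0.064 across genes. With so few libraries this shows no shared shift, but it cannot exclude that same-numbered libraries were handled together. Of 187 named genes, 179 were called, 107 of them under all alternatives run and 35 in none of the 4 fits without 1 library. BMI1, never called, turned positive without Parent 1 (0.042) and without siLINC01534-2 replicate 1 (0.11), over a range of -0.48 to 0.11 with 1 library left out. Of 44 list medians 2 lost or changed their sign, those of histones and fibroblast markers without the filter. The median of genes with AACGAGA in the 3′ UTR stayed between -0.099 and -0.089 under settings chosen after seeing the data. Estimated depths of 8750000 to 10400000 reads limit genes near 1 FPKM, LINC01534 included.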
